A study of Mus musculus with 6 samples.

Results

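Macrophage and dendritic cell genes were followed in mouse thyroid after deletion of Foxe1, a forkhead transcription factor of the follicular cell. The list holds 35 genes of myeloid cells, without MHC and chemokine genes. Of these, 34 have a probe set among the 22206 on the array, and Clec7a was not analysed here. They were grouped into 15 genes of resident macrophages, 8 of inflammatory or Fc-receptor-bearing cells (7 measured), 8 of dendritic cells and 4 shared by both lineages.

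Thyroid RNA came from 3 mice of genotype Foxe1flox/flox/Cre, called knockouts here, and from 3 Cre controls. Each animal gave 1 lobe and 1 array. All 6 animals had a C57BL/6J background, carried Cre and were given tamoxifen at 0.05 g/kg by intraperitoneal injection on 5 days in a row at an age of 6 to 8 weeks. Thyroids were taken 2 weeks after treatment. The driver of the Cre transgene, the exons flanked by loxP and the sex of the animals were not given in the sources used here. Values are log2 intensities per probe set, and each difference is the knockout mean less the control mean, in log2 units.

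Macrophages are phagocytes that live in most organs, where they clear dying cells, bind complement and antibody-coated material and depend on the growth factor receptor encoded by Csf1r. Dendritic cells take up antigen and present it to T cells. In a normal thyroid both lie in the connective tissue between follicles, beside vessels. Spi1 encodes PU.1, the factor that sets up the myeloid lineage and binds purine-rich DNA.

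Foxe1 itself read 7.60, 7.19 and 7.04 in control lobes and 3.33, 2.88 and 3.04 in knockout lobes, so the labels and the deletion went together (difference -4.19, SE 0.22, limma adjusted p = 0.000442). Array medians lay between 5.62 and 5.69. With 3 arrays a group, precision is limited throughout, and p-values measure the spread between these animals. Thyroglobulin (Tg) read 18.67 to 19.27 on the 6 arrays. Transcripts of skeletal muscle, airway and squamous epithelium were bright in the lobes of both groups, with Acta1 at 19.64 or more, Bpifa1 at 18.07 or more and Krt4 at 19.88 or more. The Y-linked genes Ddx3y, Uty, Kdm5d and Eif2s3y, 3 of them measured, averaged 8.03 to 8.30 on 4 arrays, but 3.04 in control 1 and 2.65 in knockout 3. These 2 arrays also stand apart in several results below, which are therefore given without them as well. As background, 1412 probe sets of olfactory and vomeronasal receptors, genes of sensory neurons, had a 95th percentile of 4.35 to 4.52 on the 6 arrays. A probe set below that level cannot be told from one without signal. In bulk tissue, fewer cells of a type and less RNA per cell cannot be told apart.

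No myeloid gene passed the threshold, but most read lower in the knockouts. With limma at an adjusted p of 0.05, 0 of 34 were called in either direction, where 0.338% of all probe sets were called and 0.0856% were called lower. An unadjusted p under 0.05 was reached by 5 of 34, or 14.7%, against 12.7% of all probe sets. These 5, the genes Cd14, Itgam, Lyz2, Cd163 and Spi1, were all lower, and 6.13% of all probe sets reached that p in that direction. An ordinary t statistic called 0 of all 22206 probe sets, so its 0 among these genes tells nothing about them. With it, 2 of the 34 were at an unadjusted p under 0.05, and the share over all probe sets was not counted. The difference was below 0 for 28 of 34 genes, against 52.9% of all probe sets, with a median of -0.29 against -0.02. The groups of arrays did not overlap for 3 of the 34 (8.82%), a smaller share than the 18.1% of all probe sets. Of these 3, Cd14 and Itgam were lower and Trem2 higher, where 8.78% of all probe sets were lower and 9.28% higher.

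**Figure D1:**
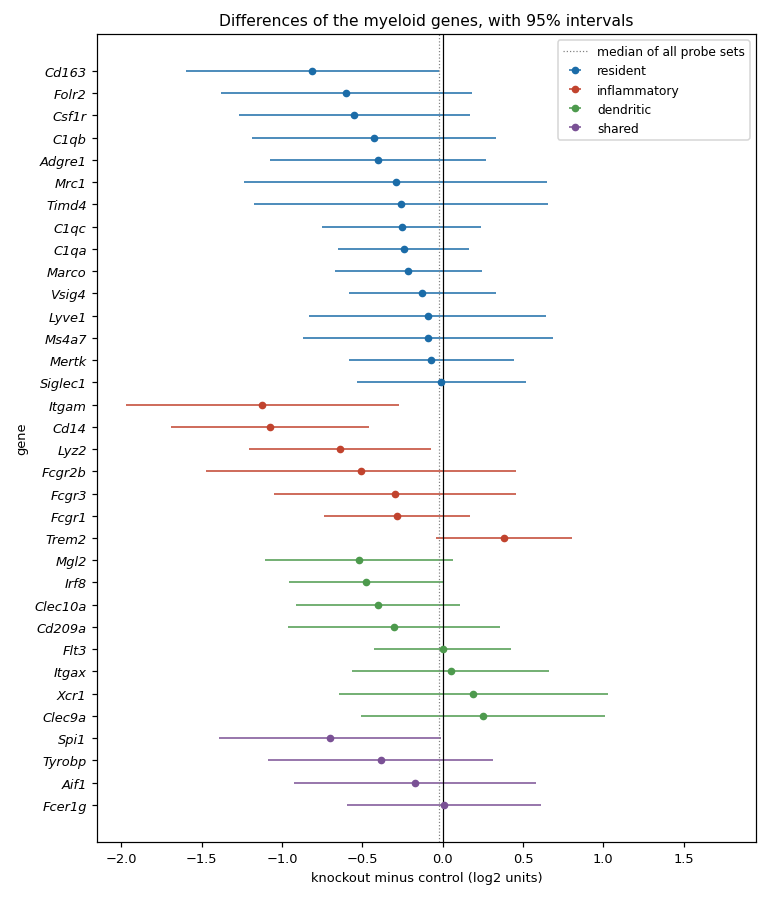
Difference between 3 knockout and 3 control arrays for each of the 34 measured genes, in log2 units, with 95% intervals from the limma fit, coloured by group. Points lie left of 0 for 28 genes, and the intervals of Itgam, Cd14, Lyz2, Cd163 and Spi1 exclude 0 before adjustment over all probe sets.

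Signal was high enough to separate from the receptor background for 26 of the 34 genes, taking the mean over all 6 arrays. Of these 26, 25 differed by less than 0, with a median of -0.395, while 51.4% of the 13550 probe sets at such levels did, with a median of -0.01. Irf8 passed through the controls alone, with a knockout mean under that level, and is thus no support for a direction. The 25 genes above the level in both groups included 24 below 0, with a median of -0.39. The 8 genes below that level were Vsig4, Siglec1, Marco, Trem2, Itgax, Clec9a, Xcr1 and Flt3. Their differences ran from -0.21 (Marco) to 0.38 (Trem2), and little can be read from them.

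The promoter letters bound by PU.1 are a feature the gene list did not use, and 5 upstream stretches are shown because they hold them in members described below. RefSeq promoters of assembly GRCm38.p6 were matched for 26 of the 35 genes. Within the 250 bases before a start, GAGGAA on either strand was present for 12 of the 26 (46.2%) and for 25.9% of all 27025 genes in the table. The longer form GAGGAAGT, which contains GAGGAA, was present for 1 of 26 (3.85%) against 2.79%. GGAA followed after any 2 bases by GAAA, the letters where an Ets factor such as PU.1 can sit beside an interferon regulatory factor, was present for 4 of 26 (15.4%) against 2.68%. A match is a description of letters and not a measured binding site. Each stretch below is 110 bases long and reads 5′ to 3′ on the gene's strand, with the matches in capitals. It ends at the base before the start, except for C1qc, where it covers bases -220 to -111. Itgam lies at chr7:128062530-128062639 (plus strand), Trem2 at chr17:48346291-48346400 (plus), C1qb at chr4:136886201-136886310 (minus), C1qc at chr4:136893025-136893134 (minus) and Fcgr3 at chr1:171059404-171059513 (minus).
Itgam: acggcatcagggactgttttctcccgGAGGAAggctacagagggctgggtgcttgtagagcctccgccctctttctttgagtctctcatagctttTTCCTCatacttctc
Trem2: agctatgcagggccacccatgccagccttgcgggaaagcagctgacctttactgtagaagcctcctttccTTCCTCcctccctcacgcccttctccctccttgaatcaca
C1qb: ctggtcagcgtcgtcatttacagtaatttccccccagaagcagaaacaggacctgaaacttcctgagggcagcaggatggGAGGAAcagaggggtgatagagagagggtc
C1qc: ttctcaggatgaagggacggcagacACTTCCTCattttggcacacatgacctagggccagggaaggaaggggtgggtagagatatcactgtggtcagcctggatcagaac
Fcgr3: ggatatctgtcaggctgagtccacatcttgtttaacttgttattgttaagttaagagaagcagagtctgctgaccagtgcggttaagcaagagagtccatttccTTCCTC
Itgam holds GAGGAA on both strands, at bases -84 to -79 and -15 to -10, and C1qc alone holds the longer form, at -195 to -188. Of the 11 measured genes with GAGGAA, 10 differed by less than 0, and Trem2, under the receptor background, was the exception. Of the 14 measured genes matched without it, 9 were below 0. The rest were Fcer1g and, under the receptor background on average, Itgax, Clec9a, Xcr1 and Flt3. Whether these shares differ was not tested.

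Inflammatory genes had the lowest median of the 4 groups, -0.51, with 6 of 7 below 0 and none called. An unadjusted p under 0.05 was reached by 3 of 7 (42.9%), against 12.7% of all probe sets. Whether this group differs from the others was not tested. Cd14, the co-receptor for bacterial lipopolysaccharide, read 8.43, 7.76 and 7.82 in control lobes and 7.13, 6.46 and 7.19 in knockout lobes. Every knockout was below every control, from 8.00 ± 0.37 to 6.93 ± 0.41 (SD, n = 3 each), a difference of -1.08 (SE 0.27, limma adjusted p = 0.148). It was the smallest adjusted p of the 34. Over the other settings tried it ran from 0.0979 to 0.467.

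Itgam, the integrin chain CD11b that neutrophils and monocytes also carry, read 7.29, 7.35 and 8.26 in control lobes and 7.20, 5.88 and 6.45 in knockout lobes. The groups did not overlap, but knockout 1 stood only just under the lowest control. The means were 7.63 ± 0.54 and 6.51 ± 0.66 (SD, n = 3 each), a difference of -1.12 (SE 0.37, limma adjusted p = 0.249). Its neighbour on chromosome 7, Itgax, the CD11c chain, differed by 0.05 (95% interval -0.56 to 0.66) at levels of 3.06 to 4.09, under the receptor background. The difference between these neighbours was not tested.

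Lyz2, the lysozyme of macrophages and neutrophils, read 18.87, 18.54 and 18.06 in control lobes and 18.14, 17.66 and 17.75 in knockout lobes. The groups overlapped through control 3 and knockout 1, and the difference was -0.64 (SE 0.25, limma adjusted p = 0.327). These values are near the highest on the arrays, 19.93. Its near-identical neighbour gene Lyz1 read 17.01, 18.03 and 14.19 in control lobes and 16.08, 16.28 and 14.90 in knockout lobes, a different order of arrays, and how far probes are shared was not tested.

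Control 1 had the highest Cd14 and the highest Lyz2 of all arrays, and it also stood out for neutrophil transcripts. Ngp, a neutrophil granule protein, read 7.37 there and at most 3.06 elsewhere, and S100a8 read 9.18 there and at most 4.52 elsewhere. Elastase (Elane) read 5.59 and at most 3.51 elsewhere. Control 1 was the highest array for 7 of the 13 measured neutrophil genes of 14 listed. The log2 of their summed level, which the secreted protein gene Ltf dominates, was 17.65 to 18.67 in the controls and 17.43 to 17.96 in the knockouts. Without control 1, the differences were -0.86 for Cd14, -0.45 for Lyz2 and -1.30 for Itgam. The part of neutrophils in these results was not tested further.

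The Fc receptors, which bind antibody-coated particles, spread widely within the groups. Fcgr2b, the inhibitory receptor, differed by -0.51, from 7.08, 7.39 and 8.56 in the controls to 7.76, 7.23 and 6.51 in the knockouts. Control 3 was the highest and knockout 3 the lowest, and the other 4 arrays were mixed. Without control 3 the difference was -0.07, and without knockout 3 it was -0.18. Fcgr3 differed by -0.30 (0.002 without knockout 3), and Fcgr1, the high-affinity receptor, by -0.29 (-0.15 without knockout 3), with adjusted p of 0.612 or more for the 3.

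Trem2, a lipid-sensing receptor of macrophages in damaged or fatty tissue, was the single inflammatory gene above 0. It read 3.27, 3.34 and 3.19 in control lobes and 3.87, 3.60 and 3.47 in knockout lobes. The groups did not overlap, and the difference was 0.38 (SE 0.19, limma adjusted p = 0.442). All 6 values lay under the receptor background of their arrays.

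**Figure D2:**
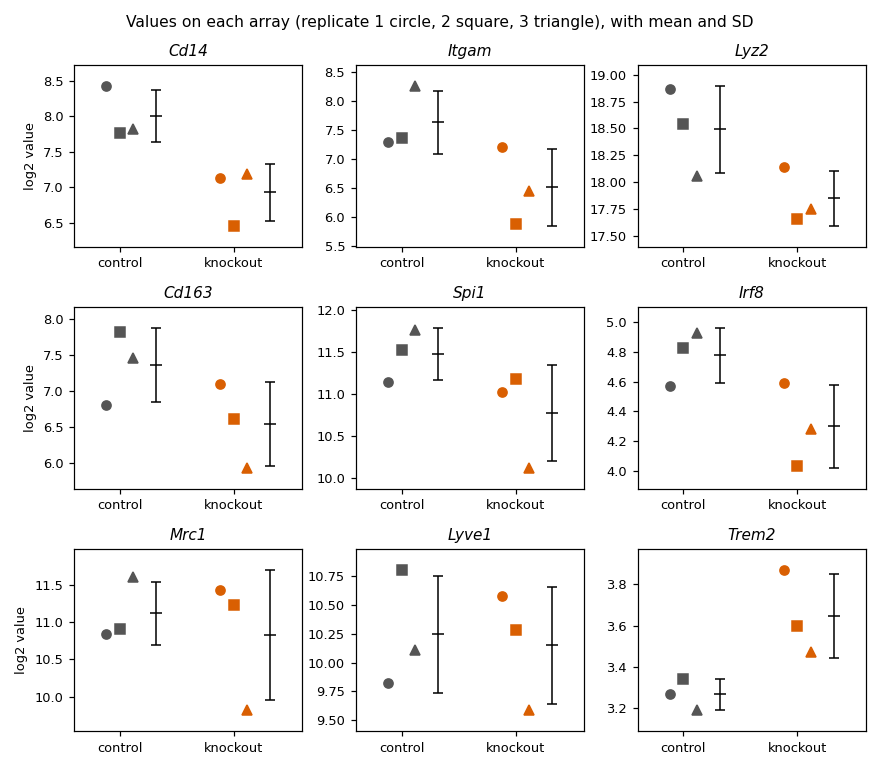
Log2 values of 9 genes on each array, with controls in grey and knockouts in orange. Symbols mark replicates 1 to 3, and the bars give the mean and SD of 3 arrays. Cd14, Itgam and Trem2 show no overlap between groups, while knockout 3 is lowest for Cd163, Spi1, Mrc1 and Lyve1.

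All 15 resident macrophage genes differed by less than 0, against 52.9% of all probe sets, with a median of -0.26 and none called. They include the 12 above the receptor background on average. An unadjusted p under 0.05 was reached by 1 of 15 (6.67%), against 12.7% of all probe sets. No resident gene had groups that did not overlap, against 18.1% of all probe sets. The differences ran from -0.81 to -0.01. Cd163, the scavenger receptor for haptoglobin-bound haemoglobin, read 6.81, 7.83 and 7.46 in control lobes and 7.10, 6.62 and 5.94 in knockout lobes. Control 1 lay among the knockouts, and knockout 3 was the lowest (7.37 ± 0.52 to 6.55 ± 0.58, SD, n = 3 each, difference -0.81, SE 0.35, limma adjusted p = 0.374). Without knockout 3 the difference was -0.51.

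Csf1r, the growth factor receptor these cells need, read 8.10, 8.55 and 9.24 in control lobes and 8.42, 8.16 and 7.66 in knockout lobes. It differed by -0.55 (95% interval -1.27 to 0.17, limma adjusted p = 0.521), by -0.25 without control 3 and by -0.34 without knockout 3. Folr2, the folate receptor beta of perivascular macrophages, differed by -0.60 (adjusted p = 0.519), and by -0.30 without knockout 3. Adgre1, which encodes the classic marker F4/80, differed by -0.40 (adjusted p = 0.634), and by -0.11 without control 3.

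The 3 chains of complement C1q, which are encoded side by side on chromosome 4 and assemble into one protein, gave like differences. C1qa read 8.49, 8.74 and 8.81 in control lobes and 8.51, 8.43 and 8.37 in knockout lobes, a difference of -0.24 (95% interval -0.65 to 0.17). C1qb differed by -0.43 (-1.19 to 0.33) and C1qc by -0.26 (-0.75 to 0.24), with adjusted p of 0.638 or more for the 3 chains. For each chain control 3 was the highest array and knockout 3 the lowest. Without knockout 3, C1qb differed by -0.08 and C1qc by -0.07, and C1qa by -0.21.

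Mrc1, the mannose receptor, and Lyve1, a hyaluronan receptor, were the brightest resident probe sets and did not differ beyond their spread. Mrc1 read 10.84, 10.91 and 11.61 in control lobes and 11.43, 11.23 and 9.82 in knockout lobes (difference -0.29, SE 0.42, limma adjusted p = 0.828). Knockout 3 alone lay below the controls, and without it the difference was 0.21. Lyve1 read 9.82, 10.80 and 10.11 in control lobes and 10.58, 10.28 and 9.59 in knockout lobes (difference -0.09, SE 0.32, limma adjusted p = 0.942), which became 0.19 without knockout 3 and 0.185 without control 2. Lymphatic vessels also make Lyve1. Of the other 6 lymphatic genes measured, 5 were below 0 and none was called. Their summed level was 10.36 to 10.67 in the controls and 9.78 to 10.30 in the knockouts (log2). That sum is weighted to the brightest genes, Pdpn and Mmrn1. The plain mean of the list with Lyve1 overlapped, at 6.82 to 7.11 in the controls and 6.50 to 7.01 in the knockouts. Prox1, the defining factor of lymphatic endothelium, read 5.85 to 7.07, above the receptor background, and the part of lymphatic vessels was not tested.

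The other resident genes showed smaller or less certain differences. Timd4, a receptor for phosphatidylserine on dying cells, differed by -0.26 and ranged from 4.47 in control 1 to 6.05 in control 3. Mertk, which also drives the uptake of dying cells, differed by -0.07, and Ms4a7 by -0.09. Of the rest, Marco, a scavenger receptor, read 4.06 to 4.57 and Vsig4, a complement receptor, 3.14 to 3.66. Siglec1, a sialic acid receptor of lymph node and spleen macrophages, read 2.65 to 3.29. Those 3 were under the receptor background on average, so no resident subtype that they mark could be followed at this signal.

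Dendritic cell genes had a median of -0.15, with 4 of 8 below 0, 3 above and 1 at 0. None reached an unadjusted p under 0.05, against 12.7% of all probe sets. Clec10a, Cd209a and Mgl2, the 3 above the receptor background in both groups, differed by -0.40, -0.30 and -0.52. Irf8, a factor needed for cross-presenting dendritic cells, read 4.57, 4.83 and 4.93 in control lobes and 4.59, 4.03 and 4.28 in knockout lobes. Control 1 and knockout 1 were level, and the difference was -0.48 (SE 0.21, limma adjusted p = 0.394). It was not above the receptor background in knockouts 2 and 3, so its knockout mean is uncertain.

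Mgl2 and Clec10a, neighbouring genes on chromosome 11 for galactose-binding lectins of conventional type 2 dendritic cells and some macrophages, gave similar differences. Mgl2 read 5.47, 5.39 and 6.09 in control lobes and 5.45, 5.15 and 4.79 in knockout lobes (-0.52, 95% interval -1.11 to 0.07). Clec10a had an interval of -0.91 to 0.11, with control 3 the highest and knockout 3 the lowest for both. Without control 3, Mgl2 differed by -0.30 and Clec10a by -0.25. The sequences of these genes are alike, and how far their probes share targets was not tested. Cd209a, the lectin DC-SIGN homologue, went from 5.38, 5.92 and 5.25 in the controls to 4.86, 5.00 and 5.78 in the knockouts. Its difference ran from -0.59 without knockout 3 to -0.10 without control 2.

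Cross-presenting type 1 dendritic cells could not be followed. Xcr1, the chemokine receptor of those cells, read 2.86 to 4.37, and it stood above the receptor background on 1 array, knockout 1. Clec9a, their receptor for dead cells, read 2.54 to 3.99. Flt3, the growth factor receptor of dendritic cells and their progenitors, read 2.58 to 3.02, with a difference of 0.00.

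Genes shared by both lineages had a median of -0.28, with 3 of 4 below 0, and knockout 3 was the lowest array for all 4. Spi1 read 11.14, 11.53 and 11.76 in control lobes and 11.03, 11.18 and 10.12 in knockout lobes. Knockout 2 lay just above control 1, and knockout 3 was far below every other array (11.48 ± 0.31 to 10.78 ± 0.57, SD, n = 3 each, difference -0.70, SE 0.30, limma adjusted p = 0.386). The difference was -0.37 without knockout 3. Tyrobp, the signalling adaptor of Trem2 and many other myeloid receptors, differed by -0.39 and by -0.06 without knockout 3. Fcer1g, the adaptor of Fc receptors, differed by 0.01 (95% interval -0.60 to 0.61). Aif1, an actin-binding protein of macrophages, differed by -0.17 and by 0.09 without knockout 3.

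**Figure D3:**
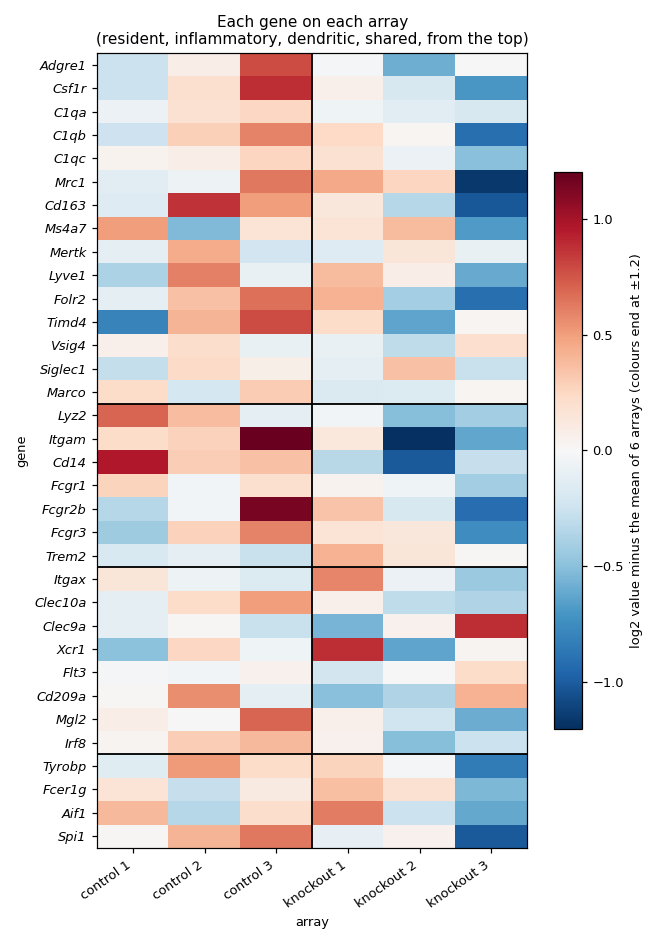
Log2 value of each of 34 genes on each array minus that gene's mean over 6 arrays, blue for lower and red for higher, with lines between groups of genes and between controls and knockouts. The knockout 3 column is mostly blue and is the lowest of the 6 arrays for 19 genes, and the control 3 column is mostly red and is the highest for 16.

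Single arrays weighed on many of these differences, knockout 3 and control 3 most often. Knockout 3 was the lowest of the 6 arrays for 19 of 34 genes (55.9%), against 22.1% of all probe sets. Control 3 was the highest for 16, against 18.0% of all probe sets. The mean over the 34 genes was 6.56, 6.75 and 6.90 in control lobes and 6.70, 6.39 and 6.19 in knockout lobes. Knockouts 2 and 3 lay below every control, while knockout 1 lay above control 1. For Cd14, Itgam and Lyz2 it was knockout 2 that was lowest, and for Cd14 and Lyz2 control 1 was highest. Without knockout 3, 24 of 34 genes were below 0, and the group medians were -0.21 (resident), -0.18 (inflammatory), -0.23 (dendritic) and 0.01 (shared). Without control 3 they were -0.18, -0.26, -0.14 and -0.24 in that order.

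**Figure D4:**
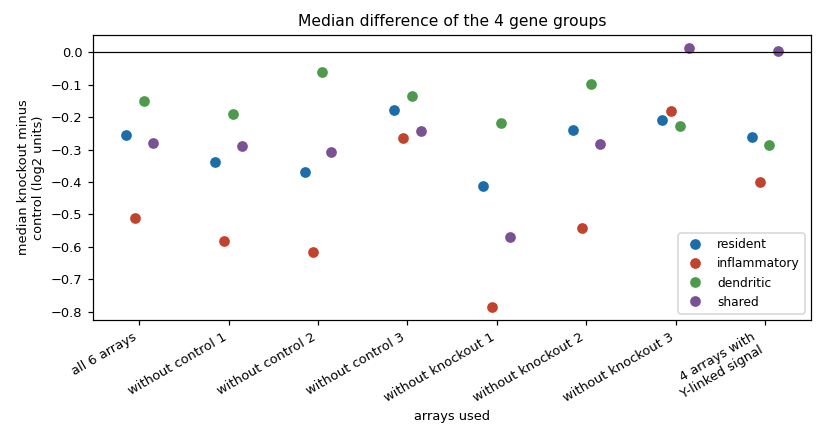
Median knockout minus control difference of each gene group, in log2 units, with all 6 arrays, without each array in turn and on the 4 arrays with Y-linked signal. The inflammatory median runs from -0.79 without knockout 1 to -0.18 without knockout 3, and the shared median reaches 0.01 without knockout 3.

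On the 4 arrays with Y-linked signal, 2 per group, 27 of 34 genes were below 0. The group medians were -0.26 (resident), -0.40 (inflammatory), -0.29 (dendritic) and 0.00 (shared). Itgam differed by -1.27 there, Cd14 by -0.995, Cd163 by -0.79, Spi1 by -0.54 and Lyz2 by -0.40, with none called. Between the 2 arrays without that signal, with 1 per group and no test, knockout 3 minus control 1 was -0.84 for Itgam, -1.24 for Cd14, -0.87 for Cd163, -1.02 for Spi1 and -1.12 for Lyz2. These 5 were named for their p on the same arrays, so their direction here is a description and not independent support. Mrc1 went from 0.07 on the 4 arrays to -1.02 on the other 2, and Ms4a7 from 0.46 to -1.18.

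Transcripts of several other cell types were also lowest in knockout 3, and those of others were not. Knockout 3 was the lowest array for 12 of 17 pan-leukocyte genes, 8 of 9 fibroblast genes, 7 of 8 blood endothelial genes and all 11 skeletal muscle genes measured. It was the lowest for 0 of 10 squamous, 0 of 9 thyroid follicular, 0 of 13 neutrophil and 0 of 14 T and NK cell genes. Only 4 of the 13 neutrophil and 3 of the 14 T and NK cell genes averaged above the receptor background. Little can thus be read from the lowest array of those 2 lists. Over the squamous genes the mean of knockout 3, 14.67, was the highest of the 6 arrays, the others reading 13.96 to 14.31. Transcripts of other tissues thus stood apart in knockout 3 in both directions. The log2 of the summed level of the leukocyte list was 12.63 to 12.91 in the controls and 11.69 to 12.33 in the knockouts. That sum is weighted to the brightest genes, such as Lcp1. The plain mean of the leukocyte list overlapped, at 6.58 to 7.06 in the controls and 6.28 to 6.79 in the knockouts. The summed level of fibroblast genes was 18.38 to 19.34 in the controls and 17.89 to 18.90 in the knockouts. The muscle list stood at 21.36 to 21.48 in the controls and 20.77 to 21.30 in the knockouts. All 9 fibroblast genes and all 11 muscle genes measured, of 10 and 11 listed, differed by less than 0. Their part in the myeloid differences was not tested. T and NK cell genes were mostly under the receptor background, 9 of 14 on every array, as were 8 of 9 B and plasma cell genes. Of the other lists, 7 of 7 adipocyte genes, 5 of 8 plasmacytoid dendritic cell genes, 4 of 10 mast cell genes, 3 of 10 squamous and 3 of 3 parathyroid genes measured were below 0. Of the plasmacytoid genes, 3 of 8 reached an unadjusted p under 0.05 and were higher, against 6.61% of all probe sets in that direction. None reached it in the lower direction. The median of that list was -0.02 and its mean 0.28. Control 1 was the highest array for all 7 adipocyte genes. Parathyroid hormone (Pth) read 18.24, 19.68 and 17.02 in control lobes and 3.56, 18.61 and 10.06 in knockout lobes, so parathyroid transcripts differed widely between lobes. Of the 9 thyroid follicular genes measured, 8 were above 0 (median 1.52) and Foxe1 fell. The factor gene Hhex rose by 2.46 (SE 0.32, limma adjusted p = 0.0273), and the iodide transporter Slc5a5 differed by 4.83 (adjusted p = 0.14). Control 3 stood apart here. Its mean over the follicular list was 8.23, the other arrays reading 9.54 to 10.49. Slc5a5 read 2.97 in control 3 and 8.00 in each of the other controls, which widens its difference. The part of these tissues in the myeloid values was not tested.

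**Figure D5:**
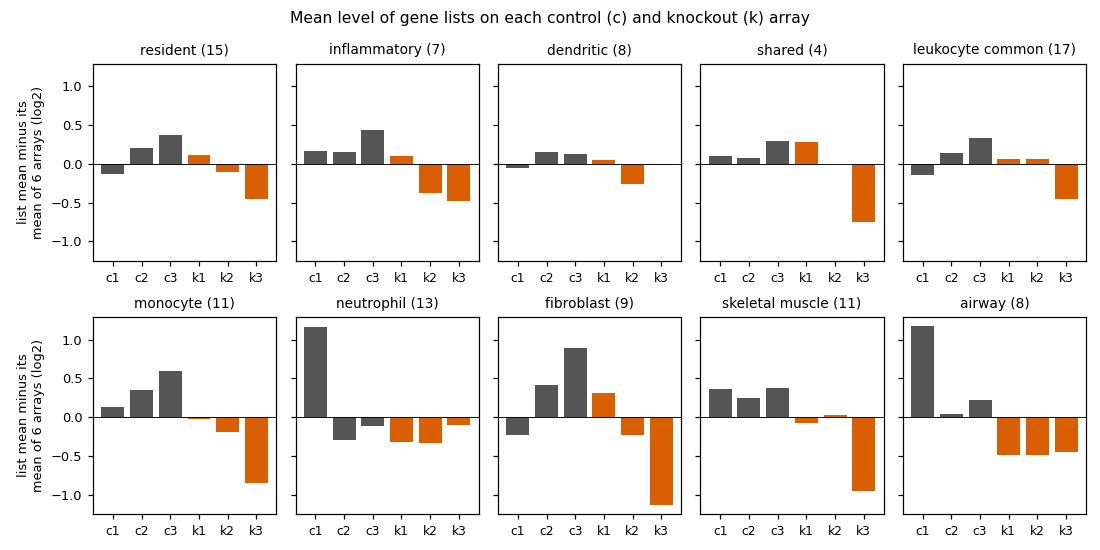
Mean log2 level of each gene list on each array, minus the list's mean over 6 arrays, for the 4 myeloid groups and 6 other lists, with the number of genes measured in brackets. Knockout 3 (k3) is lowest for the resident, shared, pan-leukocyte, monocyte, inflammatory, fibroblast and muscle lists, and control 1 (c1) stands apart for neutrophil and airway genes.

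A further 96 genes cover myeloid growth factors, signalling, transcription, complement and scavenging, leukocytes in general and monocytes. None was called, which is near the 0.338% called of all probe sets. An unadjusted p under 0.05 was reached by 13 (13.5%, against 12.7% of all probe sets). Of the 13, 9 were lower (9.38% of the 96, against 6.13% of all probe sets). The other 4 were higher, where 6.61% of all probe sets were. The median difference of the 96 was -0.16.

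The monocyte list had the lowest median of these, -0.77, with 10 of 11 genes below 0. Plac8 read 11.94, 12.71 and 13.53 in control lobes and 11.52, 10.20 and 11.42 in knockout lobes, a difference of -1.68 (SE 0.45, limma adjusted p = 0.167). Haptoglobin (Hp), the ligand of Cd163 once it has bound haemoglobin, differed by -1.35 (adjusted p = 0.172) and S100a4 by -0.78 (adjusted p = 0.359). Several genes of this list, the 3 named here among them, are also expressed outside myeloid cells, Hp for example in liver, fat and airway. The fibroblast list had a median of -0.93, and the part of fibroblasts was not tested. The 8 airway genes measured, of 9 listed, were all below 0, with a summed level of 20.45 to 21.17 in the controls and 19.86 to 20.20 in the knockouts (log2). The part of airway tissue was not tested.

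Growth factor genes were mixed, with 8 of 13 below 0 and a median of -0.11. Il34, a Csf1r ligand of epithelial cells, read 6.21, 6.20 and 5.83 in control lobes and 6.24, 6.86 and 6.49 in knockout lobes, and the groups were apart by a narrow gap (0.45, SE 0.22, limma adjusted p = 0.447). Csf1, the other ligand, differed by -0.76 (adjusted p = 0.481), with knockout 3 at 9.50 and all other arrays at 10.77 or more. Both ligands were named for their role after their values were seen. The dendritic cell ligand Flt3l read 5.05, 5.28 and 5.17 in control lobes and 4.82, 4.65 and 4.85 in knockout lobes, with no overlap (-0.39, adjusted p = 0.401). The Mertk ligand Pros1 differed by -0.78 (adjusted p = 0.42) and the receptor chain Csf2ra by -0.49 (adjusted p = 0.425).

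In the myeloid signalling list, which holds receptors and adaptors as well as kinases, 12 of 19 genes were below 0 (median -0.06). Sirpa, the inhibitory receptor that recognises CD47, differed by -0.57 (adjusted p = 0.288), the kinase Syk by 0.38 (adjusted p = 0.479) and the adaptor Hcst, below the receptor background, by -0.26 (adjusted p = 0.693). Among lineage factors 10 of 17 were below 0 (median -0.16). Runx1 differed by -0.99 (adjusted p = 0.153), Bcl6 by -1.06 (adjusted p = 0.183) and Klf4 by 1.40 (adjusted p = 0.273). All 3 are also expressed outside myeloid cells. Of the pan-leukocyte genes 12 of 17 were below 0 (median -0.17), among them the actin-bundling protein gene Lcp1 (-1.09, adjusted p = 0.183) and the integrin chain Itgb2, partner of Itgam (-0.57, adjusted p = 0.458), which was above the receptor background on 3 of 6 arrays. Cyba, a subunit of the phagocyte oxidase that other cells share, differed by 0.47 (adjusted p = 0.356).

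Complement and scavenging genes were lower in 16 of 22 (median -0.28), but their largest differences were upward. Gpnmb, a membrane glycoprotein of lipid-laden macrophages that pigment and other cells also make, read 5.74, 6.91 and 7.19 in control lobes and 9.0, 8.66 and 9.89 in knockout lobes. Every knockout was above every control, from 6.61 ± 0.77 to 9.18 ± 0.64 (SD, n = 3 each), a difference of 2.57 (SE 0.42, limma adjusted p = 0.0545). The adjusted p was below 0.05 in 7 of 18 other settings, with a range of 0.0363 to 0.413. On the 4 arrays with Y-linked signal the difference was 1.78. Haem oxygenase (Hmox1), which breaks down haem taken up by scavenging cells and is also a stress gene of many cells, differed by 1.55 (adjusted p = 0.0737). The iron exporter Slc40a1 differed by -0.54 (adjusted p = 0.308). Gpnmb and Hmox1 were named for their small p, and most genes of their list were below 0. Cd163, Csf1r and the C1q chains had lower knockout means, but knockout 1 read above control 1 for each of them. Whether Gpnmb and Hmox1 differ from those genes was not tested.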

How the data were processed

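The deposited values are log2 intensities, 1 per probe set and array, and the submitters' processing notes list RMA and Affymetrix Expression Console for them. RMA corrects background, normalizes across arrays and summarises probes. Per the labels' protocols, 250 ng of RNA with an integrity number of at least 7 was labelled with the GeneChip WT PLUS kit. Settings and genome build were not given in the sources used here. Of 22206 probe sets, 19572 carry 1 symbol by the platform annotation. Each list gene has 1 probe set.

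All probe sets were fitted with limma 3.58.1 in R 4.3.3 (lmFit, eBayes, two-sided, Benjamini-Hochberg over all probe sets, threshold 0.05). Tables and plots used Python 3.11.15 and matplotlib 3.10.9. The fit was tested on simulated data.

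The myeloid genes and the 24 lists were chosen with earlier results of these data known. Per-array values are given for the 4 brightest genes, the 6 with the smallest p and those whose groups do not overlap, and for others by choice after their values were seen. Of each other myeloid list the 3 genes with the smallest p are named; other cell type lists are given as counts and levels, with single genes chosen after their values were seen. The receptor background was added after seeing the data. Replicates are separate animals.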

Additional observations from a re-analysis of the deposited data

How the results depend on the processing

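Among the 34 myeloid genes 0 were called in all 18 other settings, and an unadjusted p under 0.05 was reached by 2 to 8 of them. Foxe1, left out by the filter at the median level, was called in the other settings save with an ordinary t statistic (-4.19, adjusted p = 0.223), and ran from -4.32 to -4.03 without single arrays. With 1 array left out, 24 to 30 genes were below 0. Keeping probe sets above the median level, which leaves 19 of the genes, 18 were. Group medians ran from -0.41 to -0.18 (resident), -0.79 to -0.18 (inflammatory), -0.23 to -0.06 (dendritic) and -0.57 to 0.01 (shared). The dendritic median was -0.44 with probe sets under the lower quartile left out, which keeps 4 of its 8 genes. Of the 96 further genes 1, Gpnmb, was called with median centring, a variance trend, a robust trend, array weights, either filter on dim probe sets, or the replicate block. The block made 63 calls over all probe sets, against 75 without it. A robust variance trend made 118, an ordinary t statistic 0, fits without single arrays 2 to 43 and the 4 arrays with Y-linked signal 6. Same-numbered arrays had correlations of -0.009, 0.076 and 0.017 between deviations from group means, and arrays of unlike number -0.077 to 0.059. Not every array correlated best with its own number. With 3 arrays a group these values cannot settle whether the numbers pair animals. In 1 setting sex was a covariate, read as male where the mean Y-linked signal was above 6. It called no member, as the main fit did. The limma adjusted p went from 0.374 to 0.154 for Cd163 and from 0.521 to 0.343 for Csf1r. For Aif1 it stayed near 0.88.

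Signs turned for genes with small differences. Array weights gave 0.024 for Aif1, 0.13 for Ms4a7 and 0.0004049 for Siglec1, and Siglec1 was 0.035 with median centring and 0.01 with renewed quantile normalization. The 4 arrays with Y-linked signal, added after seeing the data, gave 0.24 for Aif1, -0.13 for Clec9a, 0.07 for Mrc1 and 0.46 for Ms4a7. Without single arrays the ranges were -0.52 to 0.088 (Aif1), -0.13 to 0.59 (Clec9a), -0.17 to 0.28 (Fcer1g), -0.58 to 0.0017 (Fcgr3), -0.23 to 0.28 (Itgax), -0.31 to 0.19 (Lyve1), -0.20 to 0.13 (Mertk), -0.60 to 0.21 (Mrc1), -0.38 to 0.23 (Ms4a7), -0.19 to 0.12 (Siglec1), -0.73 to 0.065 (Timd4) and -0.20 to 0.55 (Xcr1). Averaging probe sets could change nothing, since each gene has 1. Median centring moved the median of all probe sets from -0.02 to 0.02.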
